A study of Saccharomyces cerevisiae with 18 samples.

Results

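DNA replication genes are described here as a set of 47 genes of budding yeast that encode the proteins which mark origins, load and start the replicative helicase, copy the DNA and supply nucleotides. They were chosen by name, and all 47 were found among the 7126 genes listed in the deposited tables. RNA was sequenced from *MAT***a** cells, which respond to α-pheromone, after 60 min with the pheromone, to ask which genes respond to pheromone and at what dose. There were 18 libraries in 2 experiments of 9, each experiment with its own untreated library. Experiment 1 used 0, 1, 5, 10, 15, 20, 50, 100 and 500 nM pheromone, and experiment 2 used 0, 0.05, 0.25, 1, 5, 10, 20, 50 and 500 nM. The 7 libraries at 20 nM and above were set against the 4 libraries at 0.25 nM and under, and every dose that both experiments shared was set against 0 nM. All libraries, untreated ones included, came from the single strain yAA95, a derivative of SEY6210a grown at mid-exponential phase in synthetic glucose medium. It lacks *BAR1*, which encodes the protease that degrades α-pheromone, the α-pheromone genes *MFα1* and *MFα2*, and *ARG4*. It carries a *FUS1* promoter driving an unstable sfGFP at *ura3*, auxotrophic alleles of *LEU2*, *URA3*, *HIS3*, *TRP1* and *LYS2*, a deletion in *SUC2* and, according to the study's methods, loss-of-function mutations in *kss1*, which leaves Fus3 as the MAPK of this pathway.

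Replication begins in G1, when the origin recognition complex (ORC) on origin DNA works with Cdc6 and Cdt1 (the product of *TAH11*) to load the Mcm2-7 ring, a step called licensing. In S phase the kinase Cdc7-Dbf4 and cyclin-dependent kinase, through Sld2, Sld3 and Dpb11, attach Cdc45 and the GINS complex to the ring, and polymerases α, δ and ε copy the opened DNA. Many genes of the polymerases and of nucleotide synthesis are transcribed in a wave at the G1 to S transition by the factor MBF, which binds the MCB box, whereas *CDC6* and several MCM genes belong to an earlier wave at the M to G1 transition driven by Mcm1 at early cell cycle boxes (ECB). Pheromone arrests *MAT***a** cells in G1, before that later wave. In cultures of many cells, fewer cells in a phase and less RNA per cell cannot be told apart.

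The stretches of promoter that hold these 2 kinds of box are shown first. Whether the boxes bear on the changes or on their doses was not tested. Promoters were taken from the R64 yeast genome as the 250 bases before to the 50 bases after each start codon, and both strands were searched. The MCB letters ACGCGT, which read alike on both strands, occurred in the promoters of 20 of the 47 genes (42.6%), against 3.07% of all 6001 promoters. They were in 8 of the 9 polymerase genes, *PRI1* being the one without them, in 1 of 8 licensing genes (*CDC6*) and in 0 of 6 ORC genes. The core of the ECB, read as CC, 3 bases of any kind, T, 2 bases of any kind and GGAAA, occurred in 5 of the 47 (10.6%), against 1.43% of all promoters, and those 5 were *MCM3*, *MCM5*, *MCM6*, *MCM7* and *CDC6*. Examples from 4 genes that fell at 20 nM and above follow, 30 bases each, 5′ to 3′ on the strand of the gene, with the MCB letters in capitals. The *POL1* stretch is at chrXIV:429867-429896, the *PRI2* stretch at chrXI:353316-353345, the *POL30* stretch at chrII:425944-425973 and the *CDC21* stretch at chrXV:467730-467759.
POL1: acatctattcaaACGCGTtaaaattttttt
PRI2: tgatttgaaattACGCGTcgcggggaatcg
POL30: ccaaaacgcgaaACGCGTaacttttttttt
CDC21: taatatttggtgACGCGTtaaatagaaaaa

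The ECB cores of the licensing genes are shown the same way, with the core in capitals, because *MCM7* and *CDC6* fell at least 2-fold and *MCM5* and *MCM3* did not pass the test although all 4 hold the core. The *MCM7* stretch is at chrII:625554-625583, the *CDC6* stretch at chrX:69156-69185, the *MCM5* stretch at chrXII:691396-691425 and the *MCM3* stretch at chrV:86744-86773, the last with the core on the opposite strand. In *MCM7* and in *CDC6* the letters matched on both strands in overlapping positions, and *CDC6* holds an MCB as well, at chrX:69122-69151, shown last.
MCM7: ggaaatttCCTTATAAGGAAAataaatgca
CDC6: ggaaattaCCCACTTAGGAAAttgagttgg
MCM5: gcgtgtttCCCTTTTAGGAAAagtgattac
MCM3: caattactTTTCCTAAATGGGtaaaaactc
CDC6 (MCB): acgcgaggcctcACGCGTcggagtttccag

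Other boxes were in few of these promoters. The SCB letters CACGAAA, bound by SBF, were in 4 of the 47 promoters (8.51%; *MCM7*, *SLD5*, *RFC1* and *RNR1*) and in 4.2% of all promoters, and the pheromone response element TGAAACA, bound by Ste12, was in 4 (8.51%; *SLD2*, *SLD5*, *POL12* and *PRI2*) and in 7.5% of all. A match of letters is a description and not a site of binding.

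The libraries held 4869999 to 16660000 mapped reads, and 44 reads (*PSF1* in 1 library) were the fewest behind any value of a replication gene. Markers of mating type fitted the label: the *MAT***a** genes *STE2*, *STE6*, *MFA1*, *MFA2* and *AGA2* were at 134.5 RPKM or above in every library, *STE3* and *SAG1* of the other mating type were at 4.20 and 23.98 RPKM or under, and the 4 deleted genes were at 0.288 RPKM or under. At each of 1, 5, 10, 20 and 50 nM, 1 of *STE3* and *SAG1* passed the test as higher than at 0 nM. The rise was at least 2-fold at 10 and at 20 nM (1.28 and 1.44 on the log2 scale). Neither gene passed the test of 20 nM and above against 0.25 nM and under. The pheromone genes *FUS1*, *FUS3*, *STE2*, *SST2* and *KAR4* all rose at least 2-fold at 20 nM and above. Of cell cycle genes listed for comparison, 11 of 11 of the G1/S wave (among them *CLB5*, *PCL1* and histone genes) and 7 of 7 of the G2/M wave (among them *CLB2* and *CDC5*) fell, and of 9 M/G1 genes 3 fell (*SIC1*, *SWI4* and *PCL9*) and 4 rose (*CLN3*, *CTS1*, *DSE2* and *FAR1*). Their part in the changes of the replication genes was not tested.

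At 20 nM and above, 37 of the 47 replication genes fell and 0 rose (limma, Benjamini-Hochberg adjusted p under 0.05 over 6002 genes), where 25.9% of all genes tested fell and 9.1% rose. No replication gene was higher at an unadjusted p under 0.05 either (0 of 47), nor with limma-voom on recovered reads (0). Of the 37, 10 fell at least 2-fold, against 4.4% of all genes. The median change was -0.52 on the log2(RPKM + 1) scale for the replication genes and -0.10 for all genes tested. In 27 of the 47 every library at 20 nM and above lay under every library at 0.25 nM and under, which held for 16.4% of all genes. With each library centred on its median log2 value, 33 replication genes fell, where 16.7% of all genes fell and 17% rose, and after quantile normalization 30 fell, where 17.7% fell and 16.7% rose, and *ORC4* passed as higher (0.21). Experiments 1 and 2 gave the same direction for each of the 37 when fitted alone, and each of the 10 fell at least 2-fold in both. These genes were picked from the fit of both experiments together, so this agreement is a description and no independent test. The number of replication genes whose change differed between experiments was 0 of 47, at an adjusted and at an unadjusted p under 0.05 (limma interaction, a weak test since experiment 1 has 1 library of low dose), beside 0 and 72 of all 6002 genes. All these p-values measure the spread among libraries of 2 experiments with 1 library per dose in each. Per the methods, doses were started by moving aliquots of a grown culture into separate flasks. The p-values are thus not a measure of the spread between independently grown cultures. The group at 20 nM and above holds several doses, so any change between those doses adds to the spread among its libraries.

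**Figure D1:**
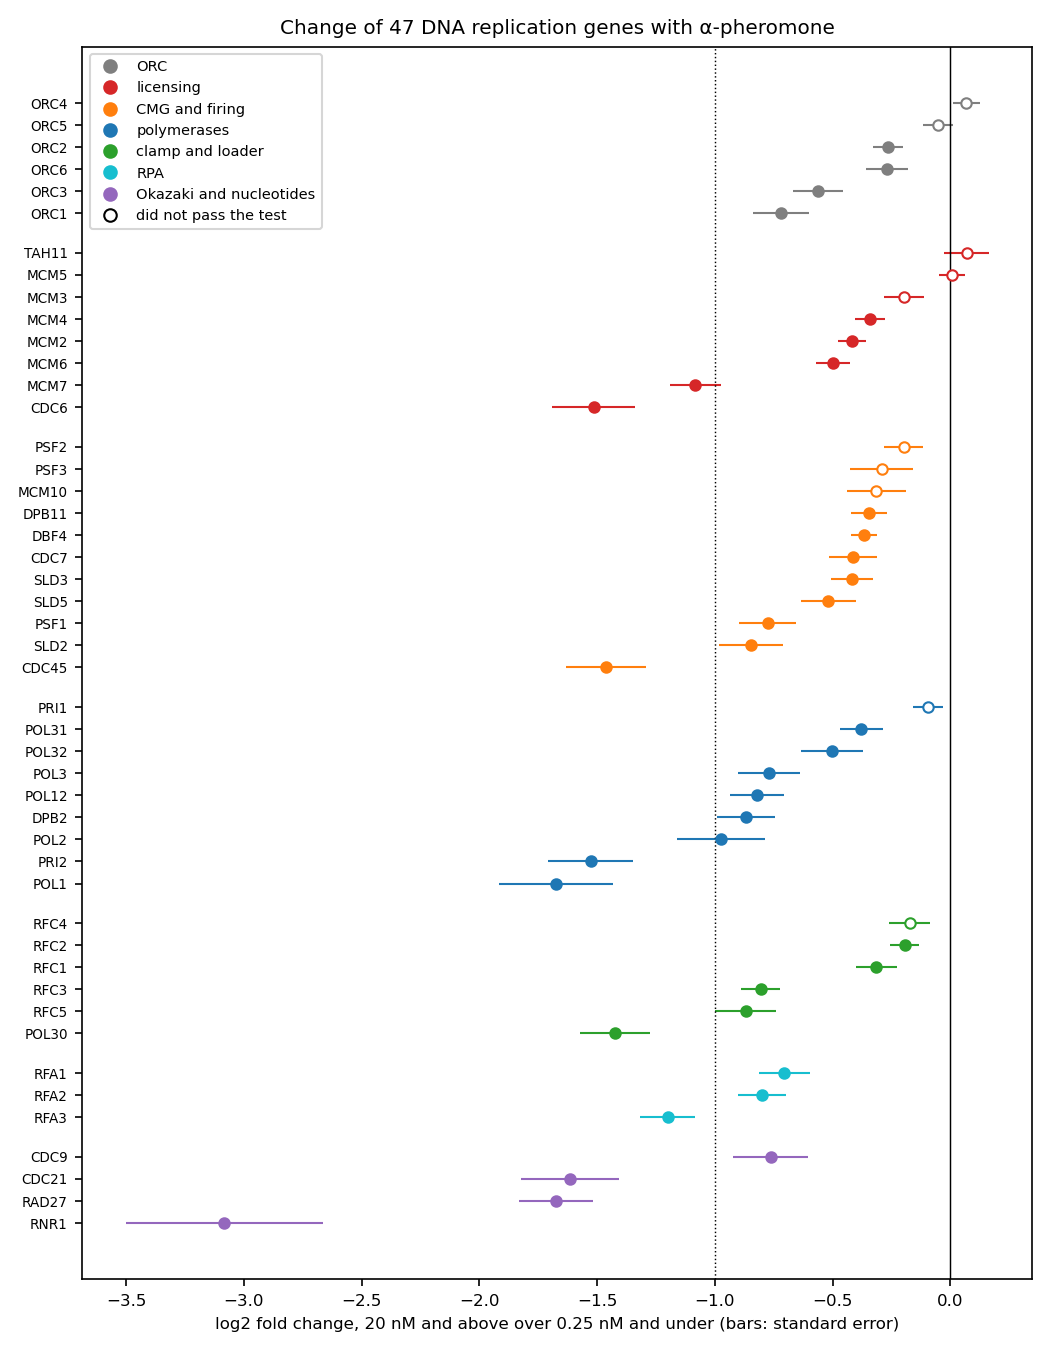
Log2 fold change of each of the 47 genes, 20 nM and above (7 libraries) over 0.25 nM and under (4 libraries), on the log2(RPKM + 1) scale and grouped by role; bars are standard errors, open symbols did not pass the test, and the dotted line marks a 2-fold fall. The 4 Okazaki and nucleotide genes run between -0.76 (*CDC9*) and -3.08 (*RNR1*), the ORC genes between 0.07 (*ORC4*) and -0.72 (*ORC1*), and the licensing genes between 0.07 (*TAH11*) and -1.52 (*CDC6*).

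Of the role groups in the set, the 4 genes of nucleotide supply and Okazaki fragment processing fell furthest, with a median of -1.65 and 4 of 4 past the test. This does not hold for all genes of these functions. Outside the set, *RNR3* was at -1.29, *CDC8* at -0.41 and *DFR1* at -0.23, and *DNA2* at -0.04 and *RNR4* at 0.12 did not pass. *RNR1*, the large subunit of ribonucleotide reductase, which makes deoxyribonucleotides, had a lowest, median and highest level of 12.6, 16.8 and 68.1 RPKM at 20 nM and above, against 155, 171 and 194 RPKM at 0.25 nM and under. The groups were far apart, and the log2 fold change was -3.08 (standard error, SE, 0.42, limma, Benjamini-Hochberg adjusted p = 0.000254). *CDC21*, thymidylate synthase, had 9.04, 13.5 and 25.98 RPKM at 20 nM and above, against 39.7, 42.0 and 45.7 RPKM at 0.25 nM and under (log2 fold change -1.62, SE 0.21, adjusted p = 0.000184). *RAD27*, the nuclease that trims the flaps of Okazaki fragments, had 6.58, 9.06 and 14.2 RPKM, against 29.4, 32.4 and 33.1 RPKM (-1.68, SE 0.16, limma, Benjamini-Hochberg adjusted p = 1.87e-05). No library of high dose reached a library of low dose for either gene. *CDC9*, the ligase that joins the fragments, had 16.8, 24.3 and 31.0 RPKM, against 36.2, 37.9 and 38.4 RPKM, and fell less, by 0.76 on the log2 scale (SE 0.16, limma, Benjamini-Hochberg adjusted p = 0.00398), with groups that did not overlap.

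Among the 9 polymerase genes 8 fell, 2 of them at least 2-fold, with a median of -0.82. *POL1*, the catalytic subunit of polymerase α, had a lowest, median and highest level of 8.84, 10.3 and 24.7 RPKM at 20 nM and above, against 35.3, 38.0 and 42.2 RPKM at 0.25 nM and under. Its highest value with pheromone came from the 20 nM library of experiment 1 and was still below all low-dose libraries (log2 fold change -1.67, SE 0.24, limma, Benjamini-Hochberg adjusted p = 0.000417). The primase that makes the RNA start of each strand is a pair of subunits, and these differed. *PRI2*, the large subunit, had 6.37, 9.81 and 16.0 RPKM, against 27.9, 28.7 and 29.4 RPKM (-1.53, SE 0.18, adjusted p = 9.67e-05), whereas *PRI1*, the small catalytic subunit, had 27.4, 31.0 and 33.9 RPKM, against 29.6, 32.3 and 34.99 RPKM (-0.10, SE 0.06, limma, Benjamini-Hochberg adjusted p = 0.242). *PRI1* groups overlapped and *PRI2* groups did not. The ratio of *PRI2* to *PRI1* within a library was 0.232 to 0.480 at 20 nM and above, against 0.831 to 0.992 at 0.25 nM and under. This pair, and the other pairs of subunits given below, were chosen after their values had been seen and were not tested. The remaining genes of this group fell by less than 2-fold: *POL2* and *DPB2* of polymerase ε by 0.97 and 0.87 on the log2 scale, *POL3*, *POL31* and *POL32* of polymerase δ by 0.77, 0.38 and 0.50, and *POL12* of polymerase α by 0.82.

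All 3 genes of RPA, the complex that coats single-stranded DNA, fell, with a median of -0.80. *RFA3*, its smallest subunit, had 23.1, 32.9 and 37.9 RPKM at 20 nM and above, against 69.9, 73.3 and 77.3 RPKM at 0.25 nM and under (log2 fold change -1.20, SE 0.12, limma, Benjamini-Hochberg adjusted p = 2.58e-05). *RFA1*, the largest subunit and the least changed of the 3, had 28.5, 40.5 and 44.2 RPKM, against 54.1, 57.4 and 61.9 RPKM (-0.70, SE 0.11, adjusted p = 0.000657). Neither gene had overlapping groups, and *RFA2* fell by 0.80 on the log2 scale. Of the sliding clamp PCNA and its loader, RFC, 5 of 6 genes fell. *POL30*, which encodes PCNA, had 42.3, 56.4 and 76.0 RPKM, against 146, 151 and 158 RPKM (-1.43, SE 0.15, limma, Benjamini-Hochberg adjusted p = 4.05e-05), and every low-dose library stood well above every high-dose one. The loader was uneven: *RFC5* and *RFC3* fell by 0.87 and 0.80 on the log2 scale, *RFC1* and *RFC2* by 0.32 and 0.19, and *RFC4* did not pass the test, at 24.1, 27.6 and 32.3 RPKM against 30.0, 32.3 and 33.2 RPKM (-0.17, SE 0.09, adjusted p = 0.137). The call of *RFC2* was lost in 7 of the 11 cases in which 1 library was left out, and the calls of *RFC1*, *POL32* and *CDC7* without the untreated library of experiment 1 (limma, Benjamini-Hochberg adjusted p 0.0658 to 0.0996).

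Factors that start and complete the CMG helicase (Cdc45, Mcm2-7 and GINS) gave 8 of 11 that fell, with a median of -0.41. *CDC45* stood apart, at 7.17, 7.85 and 14.7 RPKM at 20 nM and above, against 23.8, 25.2 and 25.2 RPKM at 0.25 nM and under. It fell by 1.46 on the log2 scale with no overlap of groups (SE 0.17, limma, Benjamini-Hochberg adjusted p = 8.51e-05). *SLD2*, a target of cyclin-dependent kinase in origin firing, and *PSF1*, a subunit of GINS, fell by 0.85 and 0.78 on the log2 scale. The other GINS genes were *SLD5* at -0.52, which passed, and *PSF3* at -0.29 and *PSF2* at -0.20, which did not. The ratio of *PSF1* to *PSF2* was 0.512 to 0.836 at 20 nM and above, against 0.906 to 1.38 at 0.25 nM and under. *PSF2*, the least changed of the 11, had 22.6, 24.4 and 28.2 RPKM, against 23.4, 28.0 and 30.9 RPKM, with overlapping groups (adjusted p = 0.0853). *SLD3*, *CDC7*, *DBF4* and *DPB11* fell by 0.35 to 0.42 on the log2 scale, and *MCM10*, a factor needed for the helicase to start moving, was at -0.32 without passing.

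Licensing genes split. *CDC6* and *MCM7* fell at least 2-fold, *MCM2*, *MCM4* and *MCM6* fell by less, and *MCM3*, *MCM5* and *TAH11* did not pass the test. *CDC6*, the loader that is made anew in each cycle, had 10.7, 11.7 and 21.1 RPKM at 20 nM and above, against 35.4, 37.6 and 47.5 RPKM at 0.25 nM and under (log2 fold change -1.52, SE 0.18, limma, Benjamini-Hochberg adjusted p = 8.61e-05). *MCM7* had 19.5, 22.8 and 30.6 RPKM, against 48.9, 51.9 and 57.5 RPKM (-1.08, SE 0.11, adjusted p = 2.97e-05). For both genes the groups were clearly separate. *MCM5* had 42.8, 47.8 and 49.5 RPKM, against 43.0, 46.1 and 48.4 RPKM, with overlapping groups (0.01, SE 0.06, limma, Benjamini-Hochberg adjusted p = 0.943). Mcm2 to Mcm7 act as a ring with 1 copy of each, yet the ratio of *MCM7* to *MCM5* transcripts within a library was 0.396 to 0.639 at 20 nM and above, against 1.12 to 1.19 at 0.25 nM and under. *MCM6*, *MCM2* and *MCM4* fell by 0.50, 0.42 and 0.34 on the log2 scale, *MCM3* was at -0.20 (adjusted p = 0.0900) and *TAH11* at 0.07 (limma, Benjamini-Hochberg adjusted p = 0.585).

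ORC genes changed least, with a median of -0.27, but they were not all flat: 4 of 6 fell, none of them 2-fold. *ORC1*, the subunit related in sequence to Cdc6, had 15.8, 19.3 and 26.5 RPKM at 20 nM and above, against 29.6, 32.7 and 34.3 RPKM at 0.25 nM and under. All 7 values lay below all 4, and the fall was 0.72 on the log2 scale (SE 0.12, limma, Benjamini-Hochberg adjusted p = 0.00106). *ORC3* fell by 0.56, also without overlap, and *ORC2* and *ORC6* each fell by 0.27 with overlap. The call of *ORC2* was lost without the untreated library of experiment 1 (limma, Benjamini-Hochberg adjusted p = 0.063), and that of *ORC6* was lost in 8 of the 11 cases in which 1 library was left out (adjusted p 0.0545 to 0.0958). *ORC5* had 30.7, 36.9 and 43.2 RPKM, against 30.8, 33.1 and 41.3 RPKM (-0.05, SE 0.06, adjusted p = 0.524), and *ORC4* was at 0.07 (limma, Benjamini-Hochberg adjusted p = 0.371). The ratio of *ORC1* to *ORC4* was 0.666 to 1.08 at 20 nM and above, against 1.32 to 1.62 at 0.25 nM and under.

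**Figure D2:**
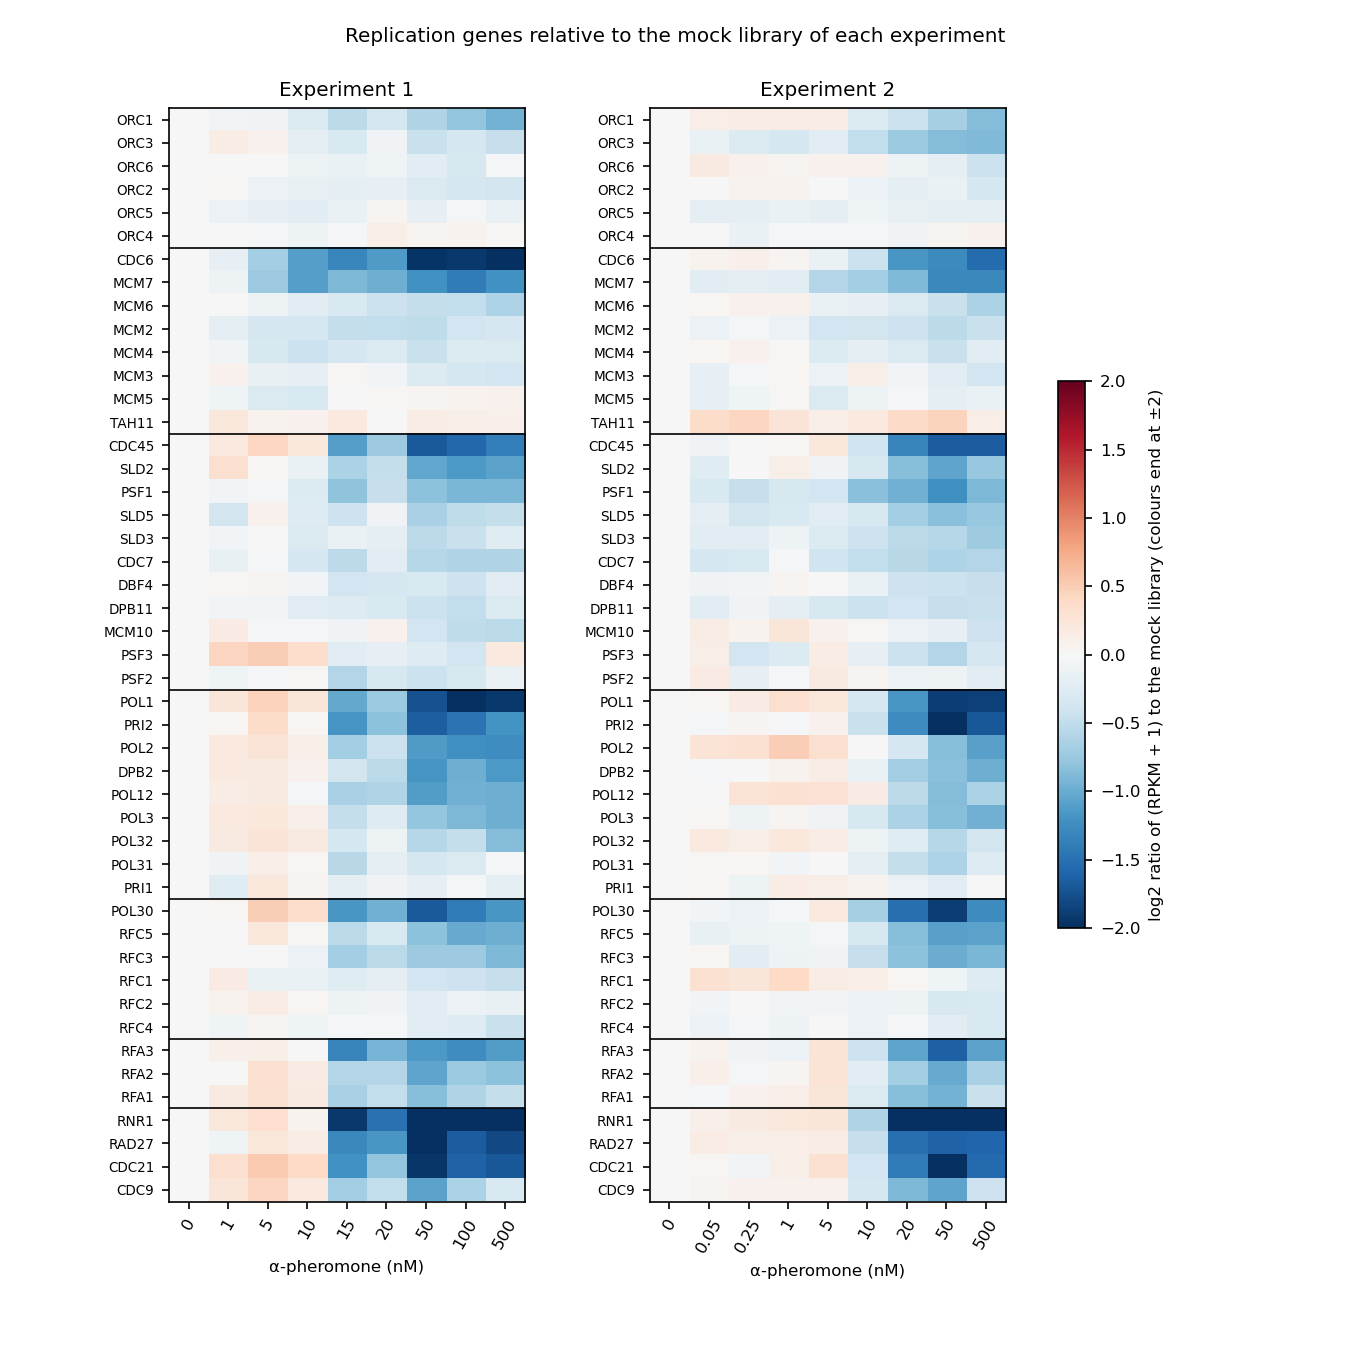
Log2 ratio of RPKM + 1 of every replication gene to the untreated (mock) library of the same experiment, by dose, with lines between role groups and colours that end at 2 in either direction. *CDC6* and *MCM7* turn blue at 5 nM in experiment 1, while the polymerase, RPA and nucleotide genes are pale or red up to 5 nM in both experiments and turn blue at 10 to 20 nM.

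The dose at which each gene fell was read next from the 6 comparisons of a dose with 0 nM, all of which share the same 2 untreated libraries. At 1 nM, 0 of 47 passed the test (limma with Benjamini-Hochberg adjustment; 2 were lower and 4 higher at an unadjusted p under 0.05), where 0.0834% of all 5995 genes fell and 0.417% rose. At 5 nM, 2 fell, neither of them 2-fold, where 1.67% of all genes fell and 0.183% fell at least 2-fold, and both were MCM genes: *MCM7* (log2 fold change -0.65, SE 0.12, adjusted p = 0.0159) and *MCM2* (-0.36, SE 0.06, adjusted p = 0.0175). Both calls were lost without the 0 nM or the 5 nM library of either experiment (adjusted p 0.0603 to 0.167). At the same dose the 9 polymerase genes had a median of +0.20, with 0 past the test (3 higher and 0 lower at an unadjusted p under 0.05). Nor did any replication gene rise at 5 nM (0 of 47 with limma, 6 at an unadjusted p under 0.05), where 1.37% of all genes did. At 10 nM, 8 fell and 0 rose (limma, 0 higher at an unadjusted p under 0.05 as well), where 11.6% of all genes fell and 5.55% rose, and 0 of the 8 fell 2-fold, where 1.1% of all genes did. They were 5 licensing genes (*MCM7* at -0.88, *CDC6* at -0.76, *MCM2* at -0.37, *MCM4* at -0.30 and *MCM6* at -0.20 on the log2 scale) and the helicase and firing genes *PSF1*, *CDC7* and *DPB11* (at -0.55, -0.42 and -0.33). None of the polymerase genes was among them (0 of 9, also at an unadjusted p under 0.05), and their median was -0.03. *MCM2*, *MCM7* and *CDC6* kept their calls with each library centred on its median, after quantile normalization and without a block for the experiment. The count of 8 was 3 without the 0 nM or the 10 nM library of experiment 2, 4 without the 10 nM library of experiment 1 and 5 without either 500 nM library.

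At 20 nM the picture changed. There, 29 replication genes fell and 0 rose (limma, 0 higher at an unadjusted p under 0.05 as well), where 18.4% of all genes fell and 7.31% rose, and 7 of them at least 2-fold, where 2.8% of all genes did. Those 7 were *CDC6*, *CDC45*, *PRI2*, *POL30*, *RAD27*, *RNR1* and *CDC21*. The counts were 19 and 4 without the 20 nM library of experiment 2, and 4 fell at least 2-fold without the 0 nM library of experiment 2. In the G1/S list 0 of 11 were lower at 5 nM, 3 at 10 nM and 11 at 20 nM, whereas 6 of 7 G2/M genes were already lower at 5 nM (limma with Benjamini-Hochberg adjustment). Of the polymerase genes 7 of 9 fell, of RPA 3 of 3, of the Okazaki and nucleotide group 4 of 4, and of ORC 1 of 6, *ORC1*. At 50 nM, 39 fell, 15 of them at least 2-fold (33.1% and 5.72% of all genes), and *TAH11*, which encodes Cdt1, was the only gene that was higher, by 0.29 (limma, Benjamini-Hochberg adjusted p = 0.0342), where 10.6% of all genes rose, and the call was lost without the 0 nM or the 50 nM library of experiment 2. At 500 nM, 38 fell, 13 of them at least 2-fold (36.9% and 7.11% of all genes), and 0 rose (limma, 0 higher at an unadjusted p under 0.05 as well), where 22.5% of all genes did. Some genes that did not pass at 20 nM and above were lower in a single dose comparison. *MCM3*, *PSF3* and *RFC4* first passed as lower at 50 nM and *MCM10* at 500 nM, each by less than 2-fold. Beyond the 10 genes, a fall of 2-fold was reached by *SLD2*, *PSF1*, *RFA2* and *CDC9* at 50 nM, by *POL2* and *RFC5* at 500 nM and by *DPB2* at both doses. Most of these were close to 2-fold at either dose (*POL2* at -0.99 at 50 nM and -1.17 at 500 nM, and *SLD2* at -1.04 and -0.91, on the log2 scale), and of the 7 only *CDC9* passed the test of 500 against 50 nM.

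All 6 MCM genes were below the untreated library at 5 nM in both experiments by 0.10 to 0.73 on the log2 scale. *MCM5* was at 38.1 and 39.3 RPKM at 5 nM, against 46.8 and 48.4 RPKM in the untreated libraries of the same experiments (log2 fold change -0.29, SE 0.10, limma, Benjamini-Hochberg adjusted p = 0.201). It did not pass the test, and at 20 nM it was back at 47.6 and 47.8 RPKM. At 50 and 500 nM it was at 48.7 and 49.5 RPKM in experiment 1, but at 42.8 and 44.1 RPKM in experiment 2.

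The licensing and polymerase genes can be followed library by library. *MCM7* was at 53.0, 49.6, 31.6, 24.3, 28.1, 26.4, 22.3, 19.5 and 22.3 RPKM from 0 to 500 nM in experiment 1. In experiment 2 it was at 57.5, 48.9, 50.8, 49.3, 38.0, 35.7, 30.6, 23.0 and 22.8 RPKM. It was thus lower at 5 nM than at any lower dose in both experiments. *POL1* was at 42.2, 50.3, 58.6, 50.0, 20.2, 24.7, 11.9, 9.56 and 10.3 RPKM in experiment 1. In experiment 2 it was at 35.3, 36.4, 39.5, 44.5, 41.7, 27.9, 15.2, 8.84 and 8.92 RPKM. At 5 nM its level was above that of the untreated library in both experiments, and at 10 nM it was above in experiment 1 and below in experiment 2. *CDC6* was at 47.5, 42.1, 29.2, 21.6, 18.7, 21.1, 11.4, 11.7 and 10.7 RPKM in experiment 1. In experiment 2 it was at 35.4, 37.2, 38.0, 37.0, 32.1, 26.1, 15.3, 14.1 and 11.6 RPKM. The 10 nM libraries thus differed between experiments. In experiment 1 *CDC6* and *MCM7* were far below the untreated level while *POL1* was not lower. In experiment 2 all 3 were lower.

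**Figure D3:**
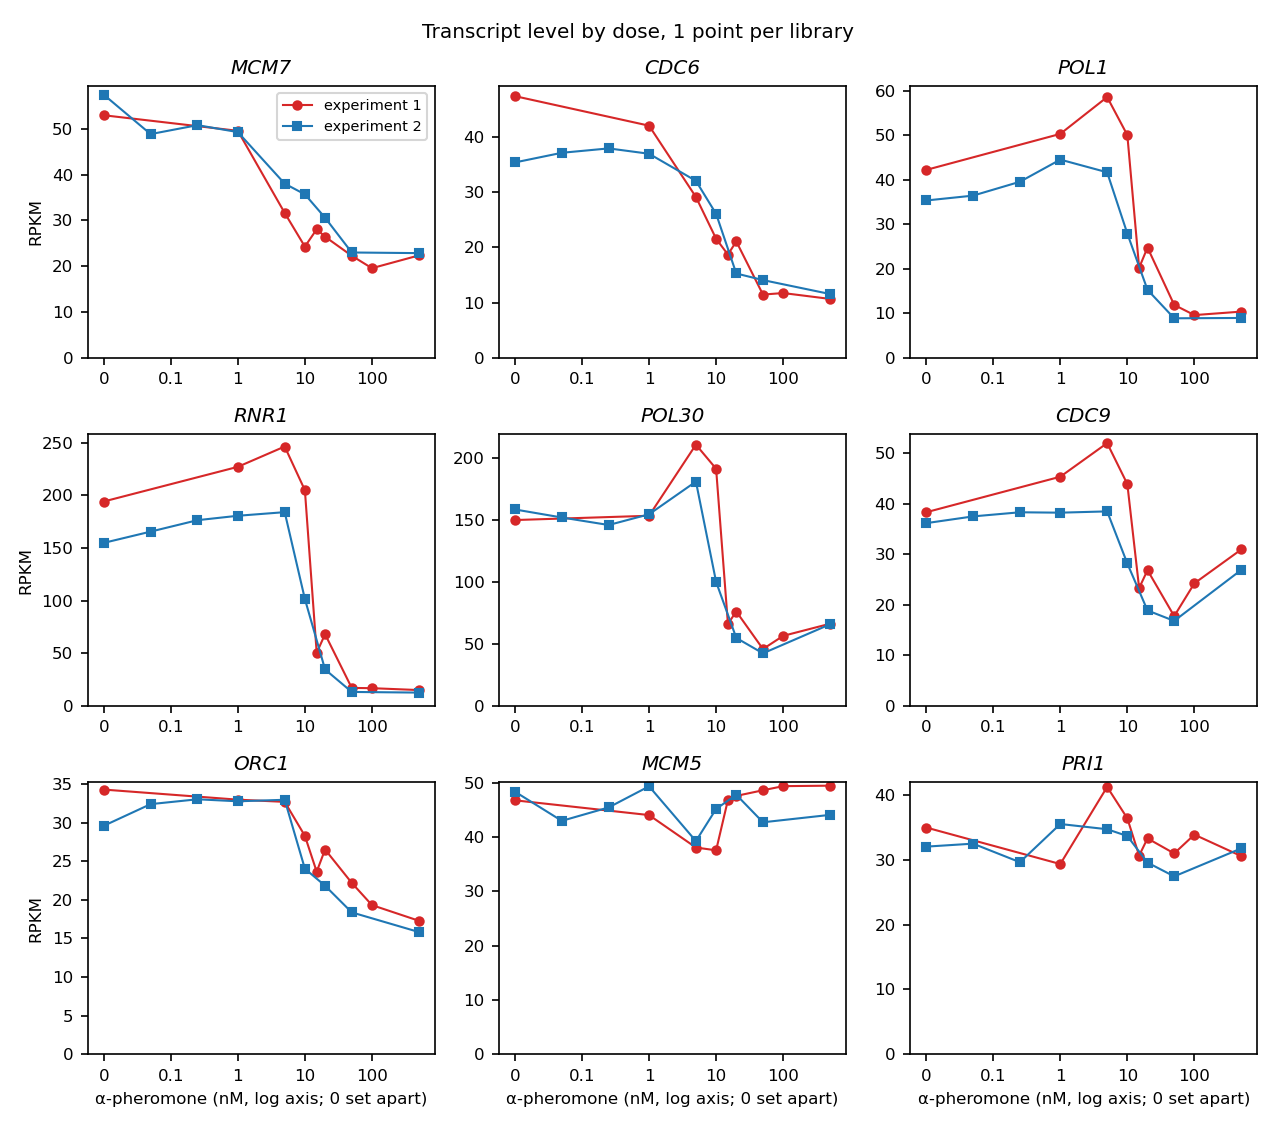
RPKM of 9 replication genes against dose, with 1 point per library, experiment 1 as circles and experiment 2 as squares, on a log dose axis with 0 nM set apart. *MCM7* declines from 5 nM, and *CDC9* is higher again at 500 nM than at 50 nM. *POL1*, *RNR1* and *POL30* are above the untreated level at 5 nM in both experiments and below it at 20 nM. *MCM5* is below its untreated level at 5 nM in both experiments and near it at 20 nM.

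*RNR1* was above its untreated level up to 5 nM in both experiments, and at 20 nM and above it had the largest fall of the 47 genes. It was at 194, 227, 247, 205, 50.5, 68.1, 17.1, 16.8 and 15.0 RPKM in experiment 1, and at 155, 166, 177, 181, 184, 102, 34.6, 13.2 and 12.6 RPKM in experiment 2. Its level fell further between 20 and 500 nM, by 1.75 on the log2 scale (SE 0.19, limma, Benjamini-Hochberg adjusted p = 5.82e-05). In that comparison of 500 with 20 nM, 17 of the 47 fell, where 22.8% of all genes did, and 0 rose (limma with Benjamini-Hochberg adjustment; 1 was higher at an unadjusted p under 0.05), where 21.1% of all genes did. The 17 held 6 of 9 polymerase genes (*POL1* at -0.95 and *POL2* at -0.78 on the log2 scale, for example), *CDC6* at -0.65 and *ORC1* at -0.51. *RNR1* was the only one of the 17 to fall at least 2-fold, as 1.8% of all genes did. The count was 6 without the 20 nM library of experiment 1 and 10 without the 500 nM library of experiment 1.

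Some genes were lower at 50 nM than at 500 nM, a comparison added after the values had been seen. *CDC9* was at 31.0 and 26.9 RPKM at 500 nM, against 17.8 and 16.8 RPKM at 50 nM (difference 0.71 on the log2 scale, SE 0.13, limma, Benjamini-Hochberg adjusted p = 0.00271). *RFA1* and *POL31* were higher at 500 nM by 0.44 and 0.34, so 3 of 47 rose where 19.5% of all genes did, and *ORC1* was lower by 0.27, 1 of 47 where 12.8% of all genes fell. The 4 calls did not hold when the experiment was left out of the fit (Benjamini-Hochberg adjusted p = 0.0554 for *CDC9*, 0.198 for *RFA1*, 0.147 for *POL31* and 0.202 for *ORC1*). *POL30* was at 66.2 and 65.7 RPKM at 500 nM, against 45.8 and 42.3 RPKM at 50 nM, without passing the test (0.57, limma, Benjamini-Hochberg adjusted p = 0.0564).

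A sigmoid fitted to the log2 values of all 18 libraries, with a baseline for each experiment, gave the midpoint dose of each gene, the dose at which its fitted log2 change was at its middle. *MCM7* had the lowest among the 10 genes that fell at least 2-fold, 6.70 nM (5.77 to 7.79 nM with each library left out in turn, 4.27 nM in experiment 1 and 10.5 nM in experiment 2 alone). *POL1* and *RNR1* had the highest, 17.3 nM each (15.7 to 19.2 nM with each library left out for both). The ranges of *MCM7* and of *POL1* did not overlap, in the full data or between the experiments. *MCM7* was not apart from all others, however. In experiment 2 alone *POL30* also lay at 10.5 nM and *RAD27* at 11.1 nM, with the rest of the 10 genes at 12.8 to 16.5 nM. *CDC6* lay at 12.8 nM, *PRI2* and *RAD27* at 13.5 nM, *CDC45* at 14.2 nM, *CDC21* at 14.9 nM, *POL30* at 12.2 nM and *RFA3* at 11.6 nM. The fitted curves also differed in shape. *MCM7* and *CDC6* declined gradually, with Hill coefficients of 1.11 and 1.49. Those of the other 8 were 2.99 to 6, the last being the highest value the fit allowed. These 8 genes were above their untreated levels at 5 nM in both experiments, and a sigmoid cannot follow a rise before a fall. What this did to their Hill coefficients and midpoints was not tested. Midpoint doses were read on a grid and come in steps, and no test was made of their differences.

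Among genes that fell by less than 2-fold, fitted after the first results had been seen, *MCM4* and *MCM2* had midpoints of 1.82 and 2.02 nM and *MCM6* one of 15.7 nM, so the MCM genes did not share a dose. The 7 polymerase genes whose fit explained at least 80% of the variance lay between 13.5 and 20.2 nM, with a median of 17.3 nM. *POL31*, whose fit explained 64.2%, had a lower midpoint, 10.5 nM. *ORC1* and *ORC2* had midpoints of 20.2 nM each and *ORC3* of 11.6 nM.

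**Figure D4:**
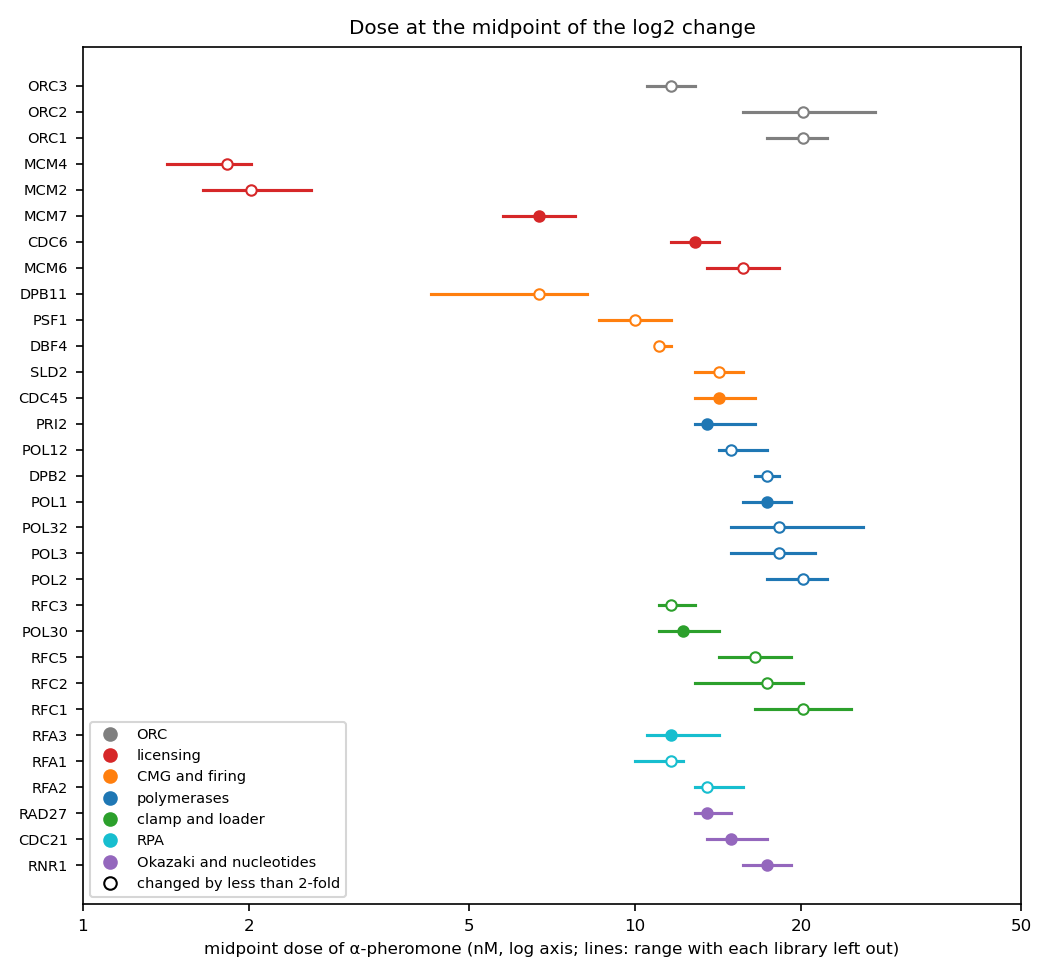
Midpoint dose of the 31 replication genes that passed the test and whose sigmoid explained at least 80% of the variance, on a log axis, with lines for the range when each library was left out and open symbols for genes that fell by less than 2-fold. *MCM4*, *MCM2*, *MCM7* and *DPB11* lie under 10 nM, and the polymerase genes shown, without *POL31*, lie between 13.5 and 20.2 nM.

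The boxes shown above were set beside the changes. The 20 genes with an MCB had a median change of -0.83 at 20 nM and above and 18 of them fell, and the 27 without it had a median of -0.35 and 19 of them fell. Both groups were wide: genes with an MCB ran from -1.68 (*RAD27*) to -0.17 (*RFC4*), and those without it from -3.08 (*RNR1*) to 0.07 (*TAH11*). Of the 10 genes that fell at least 2-fold, 7 had an MCB, and *RNR1*, *RFA3* and *MCM7* had none in this window. The 5 genes with an ECB core spanned -1.52 (*CDC6*) to 0.01 (*MCM5*). A further 33 replication genes outside the set, among them fork protection, chromatin assembly and repair genes, gave 27 that fell and 0 that rose (limma with Benjamini-Hochberg adjustment), with a median of -0.48. *TOP2*, *RNH201*, *RNR3*, *CTF18* and *TOF1* fell at least 2-fold. The small subunit of ribonucleotide reductase did not follow *RNR1*: *RNR2* fell by 0.15 on the log2 scale (adjusted p = 0.0424) and *RNR4* was at 0.12 without passing (limma, Benjamini-Hochberg adjusted p = 0.129).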

How the data were processed

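RNA was depleted of ribosomal RNA, primed with random hexamers and sequenced strand-specifically. The authors aligned reads to the yeast genome with Bowtie 2 per the methods, whereas the submitters' processing notes name Bowtie 0.12.2 and the build sacCer3, and deposited RPKM values (reads scaled to gene length and to mapped reads) per gene in 1 table per experiment. Their coordinates are not used here: promoter coordinates are of R64, with gene starts taken as start codons. Every column belonged to a sample (0 left out).

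Values were tested with limma 3.58.1 in R 4.3.3 on log2(RPKM + 1), which understates changes of low genes, for genes with a mean of at least 1 RPKM in the libraries fitted, with a mean-variance trend, the experiment as a block and Benjamini-Hochberg adjustment over all genes tested. Genes passed at an adjusted p under 0.05, and a 2-fold change was a log2 change of at least 1 in size. The comparison of 20 nM and above with 0.25 nM and under used 11 libraries, and the dose comparisons used all 18. Libraries of 1 experiment deviated together (correlation of deviations 0.178 to 0.466 over 21 pairs of doses). Each experiment also had its own untreated library, so the experiment number pairs the libraries. Whole reads were recovered from RPKM and gene length (99.4% to 99.8% of values up to 100 reads came out whole within 0.05 reads) and tested with limma-voom, which ran on 5240 genes and gave 1581 lower and 505 higher at 20 nM and above, with 36 of 46 replication genes lower (RFA2 was not run). Sigmoids were fitted on a grid of 0.1 to 1000 nM, with Hill coefficients of 0.5 to 6 (Python 3.11.15, numpy 2.4.6, pandas 2.3.3, scipy 1.17.1). On simulated data for 5242 genes, the comparison of 20 nM and above recovered 100 of 100 changes of 0.7 and 98 of 100 of 1.5 on the log2 scale with 9 false calls, and that of 500 with 0 nM recovered 95 and 98 with 16 false calls. These counts hold for those data only, and recovery in the 18 libraries themselves was not tested.

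The genes, their roles and all lists were chosen with earlier results of these data known. All 47 genes are accounted for. Full values are given for each gene that changed at least 2-fold and, in each role, for those with the largest and smallest change, and genes that reached a 2-fold change in a dose comparison alone are named with it. The alternatives were other pseudocounts, filters and scalings, no block, other dose cutoffs, each experiment alone, limma-voom and leaving out each library.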

Additional observations from a re-analysis of the deposited data

Results flagged for a closer look

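Within groups of 4 or 7 libraries, 7 of 36 groups held a value that stood apart from the rest by its gap to the nearest library (Dixon's test), where chance gives about 1 in 20, or 1.8 of 36. In 5 genes it was the 20 nM library of experiment 1, the lowest dose of its group, that was highest among the 7 libraries at 20 nM and above. *RNR1* was at 68.1 RPKM there, against 12.6 to 34.6 RPKM in the other 6. *POL1* was at 24.7 RPKM, against 8.84 to 15.2 RPKM, and *CDC21* at 25.98 RPKM, against 9.04 to 15.1 RPKM. *RAD27* was at 14.2 RPKM, against 6.58 to 9.74 RPKM, and *CDC45* at 14.7 RPKM, against 7.17 to 9.45 RPKM. All 5 remained below the libraries at 0.25 nM and under, and the 10 genes with a fall of at least 2-fold kept it without that library. In these 5 genes that library held the highest value at high dose, so leaving it out is no test of their fall. *PSF2* was at 28.2 RPKM in the 500 nM library of experiment 1, the one with the fewest reads, against 22.6 to 24.7 RPKM in the others at 20 nM and above. At 0.25 nM and under, *CDC45* was at 23.8 RPKM in the 0.05 nM library, against 25.2 RPKM in each of the other 3.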

How the results depend on the processing

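At 20 nM and above, 28 of the 37 replication genes that fell kept their call under all alternatives other than experiment 1 alone, in which 2 passed and 2 fell at least 2-fold, since that fit has 1 library of low dose. Leaving out each library in turn gave 31 to 39 that fell, 10 to 11 of them at least 2-fold, and 0 to 0 that rose. *ORC2*, *ORC6*, *CDC7*, *POL32*, *RFC1* and *RFC2* lost the call in at least 1 of these fits. The median change of all genes was -0.10 as deposited, -0.0063 after median centring and -0.01 after quantile normalization. Quantile normalization gave 1 gene that rose at 20 nM and above, 4 that fell at 10 nM, 4 that fell at least 2-fold at 20 nM, 2 that rose at 50 nM and 4 lower at 500 than at 50 nM. Centring on the median gave 4 at 10 nM and 4 lower at 500 than at 50 nM. Without the experiment as a block that pairs the libraries, 0 fell at 5 nM, 3 at 10 nM and 16 at 20 nM, 0 rose at 50 nM, 8 were lower at 500 than at 20 nM, and 0 were lower and 0 higher at 500 than at 50 nM. At 20 nM and above this lost the calls of *ORC2* (adjusted p = 0.0702), *ORC6* (0.131) and *RFC1* (0.0906, limma with Benjamini-Hochberg adjustment). With a pseudocount of 5, 4 fell at least 2-fold at 20 nM. With no filter and with a mean of at least 5 RPKM, 2 were lower at 500 than at 50 nM. The median midpoint dose of the 10 genes was 13.5 nM, 12.2 nM on the linear scale, 14.2 nM with median centring and 14.2 nM without 500 nM. With 1 library left out the counts of genes that fell were 0 to 0 at 1 nM, 0 to 3 at 5 nM, 3 to 8 at 10 nM (0 to 1 at least 2-fold), 19 to 29 at 20 nM (4 to 8), 33 to 41 at 50 nM (12 to 16) and 33 to 38 at 500 nM (10 to 16). The counts that rose were 0 to 1 at 1, 20 and 50 nM. Between 500 and 20 nM, 6 to 19 were lower and 0 to 1 higher, between 500 and 50 nM 0 to 2 lower and 1 to 6 higher, and the median midpoint dose was 12.8 to 15.7 nM. The sign of the change at 20 nM and above turned only for genes that did not pass. *ORC5* was at 0.045 with median centring, 0.049 after quantile normalization and 0.055 without the block, and *PRI1* at 0.0025 and 0.0094 under the same scalings. *MCM5* was at -0.022 against untreated libraries alone, -0.015 at 50 nM and above, -0.023 in experiment 2 alone, and -0.023 to 0.035 with 1 library left out, and *TAH11* was at -0.0092 to 0.13 with 1 library left out, the lowest without the 0 nM library of experiment 2. The cause of these changes was not tested.

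With 2 libraries per dose, the calls at 5 and 10 nM rest on single libraries, and doses of 0.05, 0.25, 15 and 100 nM have 1 library each. RPKM values are relative to all mapped reads, so an even change of all transcripts cannot be seen. The fewest reads behind a value were 44 for *PSF1*, 49 for *RAD27*, 54 for *SLD2*, 59 for *RFA3* and 60 for *CDC21*. For *SLD5*, *POL32*, *CDC7*, *CDC6*, *PSF3*, *CDC45*, *PSF2* and *PRI2* the fewest were 75 to 94. Counting error adds to the spread of all these genes, some of which fell at least 2-fold. *PSF3* passed without the 500 nM library of experiment 1, the shallowest (limma, Benjamini-Hochberg adjusted p = 0.0376).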
